A study of Rattus norvegicus with 12 samples.

Results

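The genes described here serve antigen presentation by the major histocompatibility complex (MHC). The list held 6 genes of the 32883 in the count table, chosen by their Ensembl identifiers, and all 6 were present. On the class II side it held Cd74 (ENSRNOG00000018735), RT1-Ba (ENSRNOG00000000451) and RT1-Da (ENSRNOG00000032844). The class I side was B2m (ENSRNOG00000017123), Psmb9 (ENSRNOG00000000459) and Tap1 (ENSRNOG00000000457). The symbols came with the list. They could not be checked against the identifiers, because none of the 47357 entries of the RefSeq table used here carries an Ensembl identifier, so 0 were matched by identifier and all 6 by symbol.

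The libraries were made from spinal cord at the ninth thoracic segment (T9) of Sprague Dawley rats, an outbred strain, in 3 groups of 4. Uninjured animals had no spinal cord lesion. Injured animals were taken 5 days after a hemisection at T9, which severs one side of the cord, and stimulated animals had the same lesion and time and also received epidural electrical stimulation over segments L2 to S1, below the cord that was sampled. No genetic change or drug is given for any group. The labels do not say which library came from which animal, and p-values therefore describe how far these libraries scatter, which may be technical. The labels do not mention sham surgery or an implanted electrode without current, so injury and surgery, and current and implant, cannot be told apart. Tissue, not sorted cells, was profiled, so a change in cell number and a change in RNA per cell cannot be told apart either.

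MHC class I molecules sit on nearly all nucleated cells and show peptides made inside the cell to CD8+ T cells. Cytosolic proteins are cut by the proteasome, the peptides are pumped into the endoplasmic reticulum, and there they are loaded onto a heavy chain bound to a light chain. Class II molecules are largely restricted to professional antigen presenting cells such as macrophages, dendritic cells and B cells, and show peptides from engulfed material to CD4+ T cells. In the healthy spinal cord resident microglia carry little class II, and microglia and infiltrating macrophages are the main cells known to display it after injury. Interferon gamma is the best known inducer of both pathways.

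The genes stand for different steps. Cd74 encodes the invariant chain, which escorts class II molecules to the endosome and blocks their groove on the way. RT1-Ba and RT1-Da encode the alpha chains of the rat class II molecules RT1.B and RT1.D. B2m encodes beta-2 microglobulin, the class I light chain. Psmb9 encodes a catalytic subunit of the immunoproteasome, and Tap1 a subunit of the peptide pump. No class I heavy chain and no class II beta chain was on the list.

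Promoter sequence is shown here for 5 of the genes, since class II genes are known to be switched on together through conserved X and Y boxes, and class I pathway genes through NF-kappa B and interferon response elements. The sequences are RefSeq's, build GRCr8, which is not the build named in the submitters' processing notes, and run 5′ to 3′ on the gene's strand over the 160 bases before the annotated start. Capitals mark matches, on either strand, to 5 motifs chosen after the sequences had been seen. These were the Y box CTGATTGG, an X box core TAGCAAC, the cyclic AMP response element TGACGTCA, the kappa B letters GGGACTTTC and the interferon response element letters GAAANNGAA. Only these letters were searched for, with N as any base, so a variant of a motif was not marked. No match overlapped another.
RT1-Da (chr20:4515255-4515414, plus strand): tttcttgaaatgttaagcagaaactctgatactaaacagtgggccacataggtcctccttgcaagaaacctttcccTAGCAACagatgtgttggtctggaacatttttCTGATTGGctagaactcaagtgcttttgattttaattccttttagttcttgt
RT1-Ba (chr20:4576897-4577056, plus strand): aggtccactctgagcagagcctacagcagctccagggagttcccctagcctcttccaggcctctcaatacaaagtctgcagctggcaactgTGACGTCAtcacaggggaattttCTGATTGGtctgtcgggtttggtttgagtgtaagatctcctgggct
Cd74 (chr18:56527046-56527205, plus strand): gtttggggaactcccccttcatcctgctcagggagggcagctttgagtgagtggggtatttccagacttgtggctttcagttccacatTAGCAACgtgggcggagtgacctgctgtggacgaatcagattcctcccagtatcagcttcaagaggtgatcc
B2m (chr3:129549170-129549329, plus strand): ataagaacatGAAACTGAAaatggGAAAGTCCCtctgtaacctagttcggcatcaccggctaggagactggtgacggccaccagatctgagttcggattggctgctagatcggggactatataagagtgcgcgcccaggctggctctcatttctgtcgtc
Tap1 (chr20:4668544-4668703, minus strand): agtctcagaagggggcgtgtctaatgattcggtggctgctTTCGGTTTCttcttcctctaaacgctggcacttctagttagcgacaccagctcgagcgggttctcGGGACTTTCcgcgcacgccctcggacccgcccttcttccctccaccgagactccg

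The search covered 250 bases before the start, and every match fell within the stretches printed. RT1-Da held an X box core 84 bases before the start and a Y box at 52, RT1-Ba a cyclic AMP response element at 69 and a Y box at 46, and Cd74 an X box core at 72. Among 33469 promoters of the same length, 3.19% held the Y box letters, 2.88% the X box core and 1.59% the cyclic AMP response element. B2m and Tap1 held the same pair of motifs: the interferon response element 150 and 120 bases before the start, and the kappa B letters at 136 and 55. The kappa B letters occurred in 91 promoters, or 0.272%, and the interferon response element letters in 8.12%. Psmb9 held none of the 5 in this window. Tap1 and Psmb9 lie head to head, and their RefSeq promoter windows, which run on 50 bases past the start, overlapped by 44 bases.

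Total counts per library were between 204836 and 553986. The group means were 332304 ± 89069 (uninjured), 465915 ± 78507 (injured) and 260248 ± 46105 (stimulated; SD, n = 4 each), and the stimulated libraries were all shallower than the injured ones. Levels are given as CPM, counts divided by a library's total after TMM scaling and given per 1000000. Each tag comes from the 3′ end of a transcript. Expected counts are thus not set by length, but levels of different genes are not ranked here beyond shares of the class sums and ratios within a library. Of the 6 genes, Cd74, RT1-Da and B2m passed the filter on low counts and were tested among 5285 genes. RT1-Da passed through its counts in the injured and stimulated libraries, so a difference from uninjured cord was favoured by the filter. RT1-Ba, Psmb9 and Tap1 did not pass and are described by their counts. Microglia, T cell, B cell and other marker genes could not be found in the table by symbol, so the cell makeup of the tissue was not checked.

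Against uninjured cord, the class I light chain B2m and the class II alpha chain RT1-Da rose after injury, with and without stimulation. The invariant chain Cd74 was about 2-fold higher in both, but passed the test only in stimulated cord. Psmb9 and RT1-Ba went from 1 and 0 counts in all uninjured libraries together to between 20 and 57 counts in each lesioned group. Most RT1-Ba counts came from injured replicate 4 and stimulated replicate 2. In a fit without a filter Psmb9 passed against uninjured cord and RT1-Ba did not. No member passed the test between stimulated and injured cord. In what follows, "after injury" and "with stimulation" both mean a difference from uninjured cord.

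Among the 5285 genes tested, 16.8% rose after injury and 18.3% rose with stimulation against uninjured cord (edgeR, adjusted p under 0.05). Of the 3 genes of the list that were tested, RT1-Da and B2m rose after injury, and all 3 rose with stimulation. A filter that lets a gene pass on its injured libraries favours such calls, and these counts are no test of the list. In 16.6% of tested genes all injured libraries lay above all uninjured ones, and in 16% all stimulated libraries did. Over all 6 genes, in the fit without a filter, the median log2 fold change was 2.42 after injury and 2.33 with stimulation. The medians were the same with RT1-Ba at its ratio to a floor of 3 counts over the uninjured group. Over the 18333 genes fitted without a filter the median was 0 in both comparisons. The list was chosen with earlier results of these data known, so these medians are no test of it. The 2 comparisons share the uninjured libraries.

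**Figure D1:**
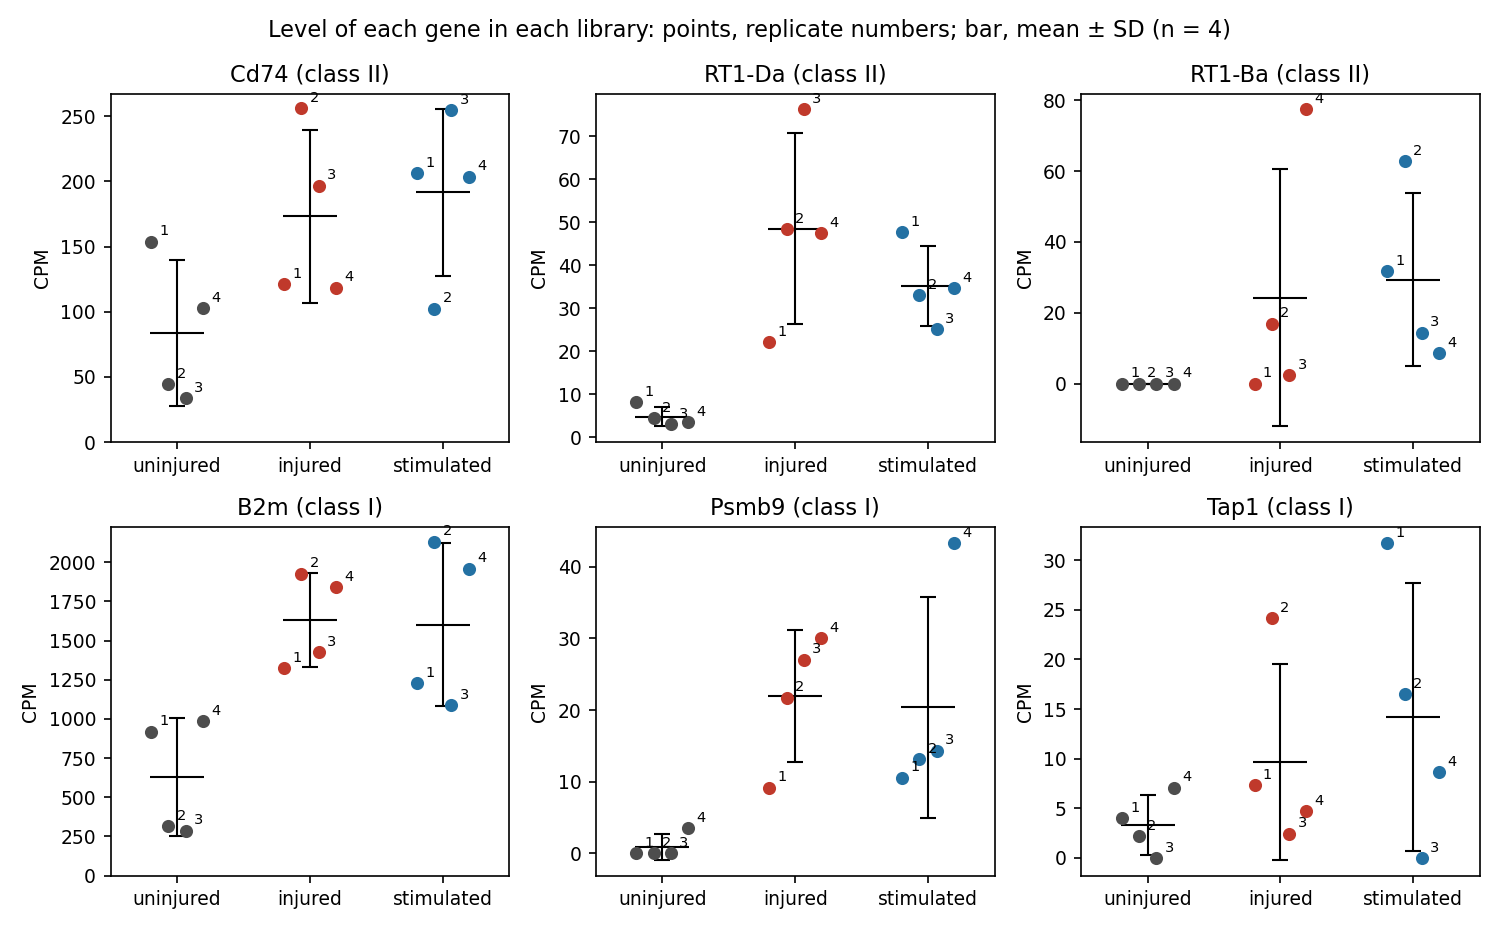
CPM (y axis, linear, a separate scale for each gene) of the 6 genes in the uninjured, injured and stimulated libraries, with replicate numbers beside the points and bars for mean ± SD (n = 4). For B2m, RT1-Da and Psmb9 every injured and stimulated library lies above every uninjured one, while RT1-Ba is carried mostly by injured replicate 4 and stimulated replicate 2.

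Among the class II genes, RT1-Da had 2, 2, 1 and 1 counts in uninjured replicates 1 to 4, 12, 20, 31 and 30 in the injured ones and 9, 10, 7 and 8 in the stimulated ones. In CPM the uninjured libraries were at 8.10, 4.48, 3.06 and 3.55, the injured ones at 22.0, 48.3, 76.3 and 47.4, and the stimulated ones at 47.6, 33.0, 25.1 and 34.7. Every library of the 2 lesioned groups lay above every uninjured library, and injured replicate 1 was the lowest of them. The log2 fold change was 3.28 in injured against uninjured cord (SE 0.51, adjusted p = 0.000179 by edgeR's quasi-likelihood test with Benjamini-Hochberg adjustment) and 2.81 in stimulated against uninjured cord (SE 0.56, edgeR adjusted p = 0.000892). Of all genes tested, 2.02% had a higher log2 fold change than RT1-Da after injury alone. RT1-Da entered that set through its lesioned libraries, so the filter favoured a high place and the percentage is no test. The uninjured level rests on 6 counts in all, and the ratio of summed counts per summed total was 11.1 with a 95% counting interval (exact Clopper-Pearson) of 4.89 to 30.9 in injured cord, and 7.24 with an interval of 3.0 to 21.1 in stimulated cord. Intervals of this kind cover counting error only.

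Cd74 was already present in uninjured cord, at 154, 44.8, 33.6 and 103 CPM in replicates 1 to 4, from 38, 20, 11 and 29 counts. It stood at 121, 256, 197 and 118 CPM in injured and at 206, 102, 255 and 204 CPM in stimulated cord. The groups overlapped: uninjured replicate 1 lay above injured replicates 1 and 4 and above stimulated replicate 2. The group means were 83.8 ± 55.7, 173 ± 66.1 and 192 ± 64.1 CPM (SD, n = 4 each). The log2 fold change after injury was 1.08 (SE 0.43), which did not pass (edgeR adjusted p = 0.0624). It was 1.23 in stimulated against uninjured cord (SE 0.43, edgeR adjusted p = 0.0359), which did. Both calls sat close to the threshold. In injured cord Cd74 passed in 4 of 21 alternatives: without uninjured replicate 1 (edgeR adjusted p = 0.0158), with limma-voom and sample weights (0.0157), without a filter (0.0151) and with total counts as library size (0.0409). In stimulated cord the call was lost without any 1 of 5 libraries, uninjured replicates 2 and 3 and stimulated replicates 1, 3 and 4, with edgeR adjusted p between 0.0644 and 0.118.

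RT1-Ba was listed at 0 in all 4 uninjured libraries. With 3 counts over the group as the limit that a count of 0 allows, its level there was at most 2.26 per 1000000. Injured replicates 1 to 4 held 0, 7, 1 and 49 counts, and stimulated replicates held 6, 19, 4 and 2. A single library, injured replicate 4, thus gave 86.0% of the injured counts, and stimulated replicate 2 gave 61.3% of the stimulated ones. Set against the floor of 3 counts over the uninjured group, RT1-Ba was 13.6-fold higher in injured cord, but only 2.71-fold higher without injured replicate 4. In stimulated cord the ratio to that floor was 13.2, and 7.24 without stimulated replicate 2. Those ratios leave out counting error in the lesioned group. In the same order, the lower 95% counting limits were 10.7 and 1.73 in injured cord and 10.1 and 5.03 in stimulated cord. Injured replicate 1 had no RT1-Ba count in 510260, which allows up to 5.88 per 1000000. The same library was the lowest injured one for RT1-Da and Psmb9 and had the lowest class II sum of the injured libraries. A fit without the count filter gave an adjusted p of 0.0855 for RT1-Ba after injury and 0.0875 with stimulation (edgeR). Over the alternatives that p ran from 4.86e-09 to 0.268 after injury and from 1.06e-07 to 0.324 with stimulation, so no call is made. RT1 genes belong to a polymorphic family with similar members, and outbred rats may differ in them. How many tags were lost or assigned to a relative was not tested.

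The 2 better counted class II genes were also set against each other within each library. Cd74 counts per RT1-Da count were 19, 10, 11 and 29 in the uninjured libraries. They were 5.5, 5.3, 2.58 and 2.5 in injured and 4.33, 3.10, 10.1 and 5.88 in stimulated cord. The uninjured values rest on 1 or 2 RT1-Da counts each. All injured values were below all uninjured ones, while stimulated replicate 3 overlapped uninjured replicate 2. The alpha chains RT1-Da and RT1-Ba together stood at 3.06 to 8.10 CPM in the uninjured libraries, 22.0 to 125 CPM in the injured ones and 39.5 to 95.8 CPM in the stimulated ones. These ratios and sums were given no test.

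On the class I side, B2m was at 919, 318, 288 and 986 CPM in uninjured replicates 1 to 4. In injured cord it was at 1326, 1928, 1427 and 1841 CPM, and in stimulated cord at 1227, 2131, 1088 and 1959 CPM. No lesioned library overlapped the uninjured ones, although uninjured replicate 4 came within reach of stimulated replicate 3. The log2 fold change was 1.38 after injury (SE 0.39, edgeR adjusted p = 0.0126) and 1.36 with stimulation (SE 0.40, edgeR adjusted p = 0.0129), both against uninjured cord. B2m stayed called in each of the 21 alternatives in both comparisons. Within the uninjured group, replicates 1 and 4 stood above replicates 2 and 3 for both B2m and Cd74. Replicates 2 and 4 were the high ones for B2m in injured and in stimulated cord as well, but not for Cd74, whose highest libraries there were injured replicate 2 and stimulated replicate 3.

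Psmb9 had 0, 0, 0 and 1 counts in the uninjured libraries, 5, 9, 11 and 19 in the injured ones and 2, 4, 4 and 10 in the stimulated ones. Each lesioned library held more than any uninjured library, also in CPM, where the lowest was 9.18 in injured replicate 1 and the highest uninjured value was 3.55. What share of genes outside the filter separated in this way was not worked out. The ratio of summed counts per total was 31.4 in injured cord, with a counting interval of 5.35 to 1267, and 25.5 in stimulated cord, with an interval of 4.08 to 1058. Without uninjured replicate 2 these ratios were 20.8 and 16.9, and without stimulated replicate 4 the second was 16.6. The one uninjured count came from replicate 4. Without that library the ratio of Psmb9 to the same floor was 8.31 in injured and 6.77 in stimulated cord. The lower 95% counting limits were then 6.48 and 5.01. The fit without a filter called Psmb9 higher in both (edgeR adjusted p = 2.41e-05 and 0.000266), as it did 6.41% and 6.28% of its 18333 genes, and the adjusted p stayed under 0.05 in each of the 19 alternatives in both comparisons.

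Tap1 was at the edge of detection. The uninjured libraries had 1, 1, 0 and 2 counts, the injured ones 4, 10, 1 and 3 and the stimulated ones 6, 5, 0 and 2, and the groups overlapped. The ratio to uninjured cord was 3.21 after injury (counting interval 1.06 to 13) and 4.15 with stimulation (1.28 to 17.5). Without injured replicate 2 the first was 1.82 (0.487 to 8.24). Without uninjured replicate 4 the ratios were 5.10 (1.22 to 45.3) and 6.60 (1.49 to 60.2). Neither passed in the fit without a filter (edgeR adjusted p = 0.28 and 0.153). The 10 counts of injured replicate 2 were 55.6% of that group's. With 35 counts of Tap1 in all 12 libraries, a difference was not called at this depth.

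**Figure D2:**
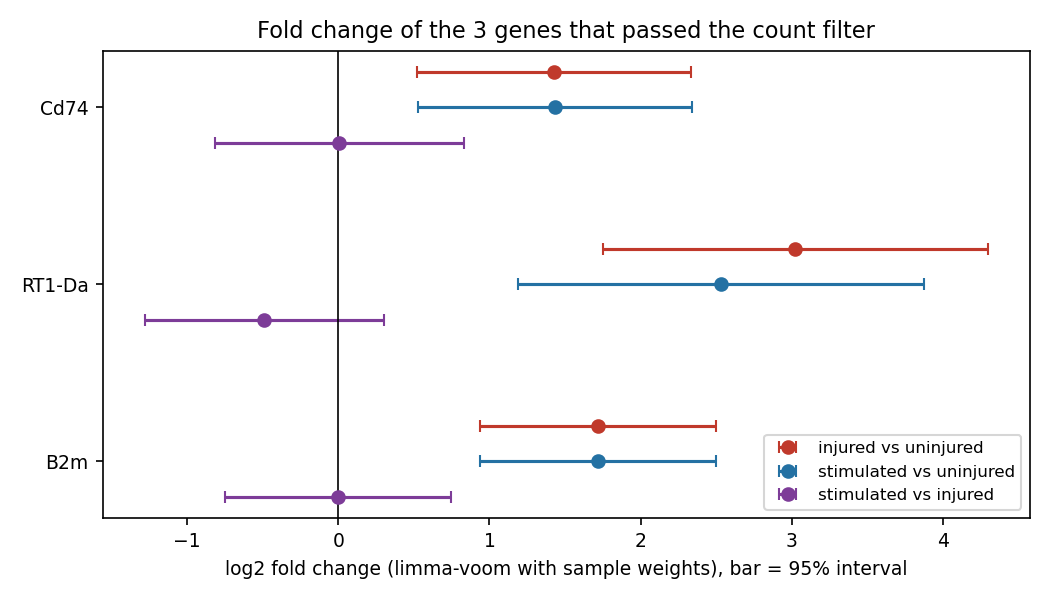
Log2 fold change (x axis) of Cd74, RT1-Da and B2m in the 3 comparisons, from limma-voom with sample weights, with 95% intervals as bars. The intervals for stimulated against injured cord span 0 for all 3 genes, and those against uninjured cord lie above 0.

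Limma-voom weights libraries by their fit to the rest, and its log2 fold changes after injury were 1.43 for Cd74, 1.72 for B2m and 3.02 for RT1-Da, where edgeR gave 1.08, 1.38 and 3.28. The order of the 3 genes was the same with both tools.

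Stimulated and injured cord were compared next, and no tested member passed. The log2 fold change of stimulated against injured cord was 0.15 for Cd74 (SE 0.41), -0.03 for B2m (SE 0.39) and -0.47 for RT1-Da (SE 0.39), with edgeR adjusted p = 0.923, 0.987 and 0.697. No gene of the 5285 tested passed in this comparison (0%), and 491 had an unadjusted p under 0.05, while DESeq2 called 1, not a member, and limma-voom 0. The 95% intervals from limma-voom ran from -0.82 to 0.83 for Cd74, from -0.75 to 0.75 for B2m and from -1.28 to 0.30 for RT1-Da. The intervals leave room for changes up to these bounds. For RT1-Da injured replicates 2, 3 and 4 stood at 48.3, 76.3 and 47.4 CPM, and the stimulated libraries between 25.1 and 47.6 CPM. Injured replicate 1, at 22.0 CPM, lay below every stimulated library. Summed counts per total gave stimulated to injured ratios of 0.974 for RT1-Ba (counting interval 0.608 to 1.53), 0.814 for Psmb9 (0.454 to 1.41) and 1.29 for Tap1 (0.582 to 2.79). Leaving out 1 library moved these values by over 1.5 times. RT1-Ba stood at 4.88 (2.19 to 12.3) without injured replicate 4 and at 0.534 (0.261 to 1.01) without stimulated replicate 2. Tap1 stood at 2.28 (0.878 to 6.36) without injured replicate 2, and Psmb9 at 0.529 (0.238 to 1.07) without stimulated replicate 4. By the same measure the ratio was 0.655 for RT1-Da (0.428 to 0.979), 0.895 for B2m (0.843 to 0.95) and 1.03 for Cd74 (0.856 to 1.24). The intervals of RT1-Da and B2m lie below 1, but they cover counting error only, and neither gene passed the test over libraries. Without injured replicate 4 both intervals included 1 (0.434 to 1.05 for RT1-Da and 0.916 to 1.04 for B2m). Without injured replicate 1 both lay further below 1 (0.354 to 0.824 for RT1-Da and 0.784 to 0.888 for B2m).

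The class II and class I sides were compared through the sum of CPM of their 3 genes in each library, without a test, since the genes were chosen together. B2m made up nearly all of the class I sum. Cd74 was the largest single part of the class II sum in every library, but in injured replicate 4 the alpha chains together, at 125 CPM, exceeded its 118 CPM. The class II sum was 162, 49.3, 36.7 and 106 CPM in the uninjured, 143, 321, 276 and 243 CPM in the injured and 286, 198, 294 and 247 CPM in the stimulated libraries. Injured replicate 1 fell below uninjured replicate 1, and the stimulated libraries lay above all uninjured ones. The class I sum was 923, 320, 288 and 996 CPM in the uninjured, 1342, 1974, 1456 and 1875 CPM in the injured and 1270, 2160, 1102 and 2011 CPM in the stimulated libraries, with no overlap between uninjured and lesioned libraries. On the log2 scale the difference of group means from uninjured cord was 1.66 for class II and 1.60 for class I after injury, and 1.76 and 1.54 with stimulation.

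Measured by these sums and by Cd74 against B2m, the balance between the 2 sides differed between groups by less than the SD of either lesioned group. Some of these differences exceeded the SD of the uninjured group. Both measures mostly follow Cd74 and B2m. The class II alpha chains alone had means of 4.80 (uninjured, from few counts), 72.7 (injured) and 64.5 CPM (stimulated). B2m had means of 628, 1630 and 1601 CPM in the same order. The class II sum as a percentage of the class I sum was 14.1 ± 3.0 (uninjured), 14.7 ± 3.63 (injured) and 17.7 ± 8.29 (stimulated; SD, n = 4 each). The ratio of Cd74 to B2m counts, which does not depend on how libraries are scaled, was tested as a single value. There were 16.7, 14.1, 11.7 and 10.4 Cd74 counts per 100 B2m counts in uninjured replicates 1 to 4. Injured libraries had 9.14, 13.3, 13.8 and 6.44, and stimulated ones 16.8, 4.81, 23.4 and 10.4. On the log2 scale injured minus uninjured was -0.38 (exact two-sided permutation p = 0.257, adjusted p = 0.771 over 3 comparisons). Stimulated minus uninjured was -0.15 (exact permutation p = 0.83, adjusted p = 0.83) and stimulated minus injured 0.22 (exact permutation p = 0.714, adjusted p = 0.83). With 4 against 4 libraries the exact permutation test cannot give p below 0.0286 before adjustment. After adjustment over 3 comparisons, a shift in only a single comparison could therefore not have passed. These p-values are thus no evidence that the balance stayed the same. The spread was widest in the stimulated group, with an SD of 0.99 against 0.52 in injured and 0.29 in uninjured cord. In stimulated cord replicates 2 and 4 had the most B2m in CPM, and replicates 1 and 3 the least. For Cd74 replicate 3 was highest and replicate 2 lowest, with replicates 1 and 4 close, at 206 and 204 CPM.

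**Figure D3:**
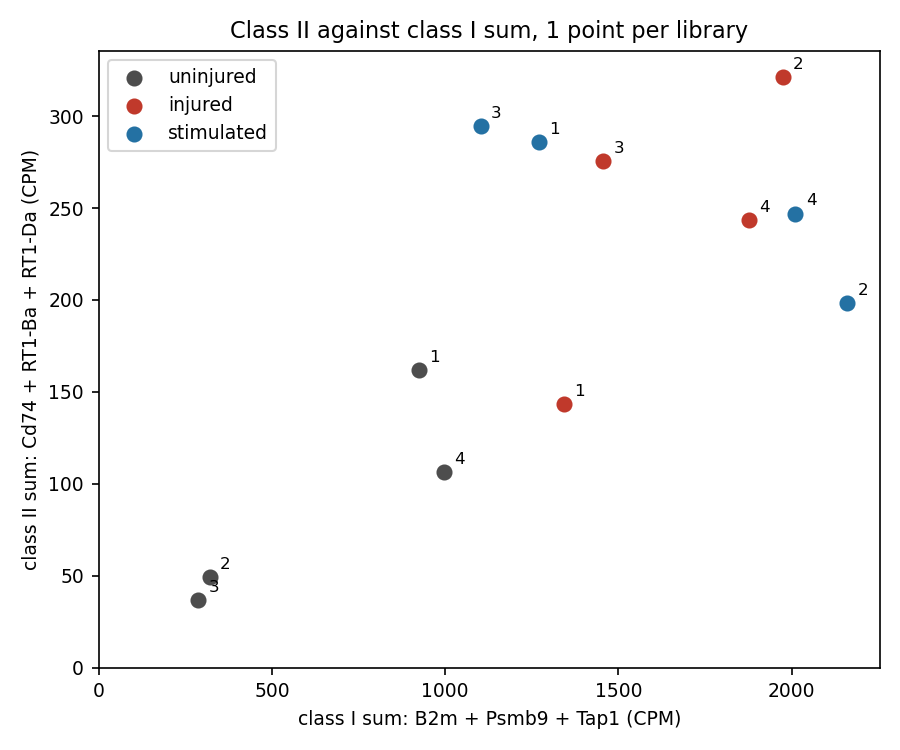
Class II sum (Cd74, RT1-Ba and RT1-Da, y axis) against class I sum (B2m, Psmb9 and Tap1, x axis) in CPM, 1 point per library with its replicate number and colours for the groups. Uninjured libraries lie at the lower left, between 288 and 996 CPM on the x axis, and stimulated libraries run from the upper left (replicates 3 and 1) to the right (replicates 4 and 2).

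Likeness between genes was measured as the root mean square difference of log2 CPM over the 12 libraries, after centring each gene on its mean. It was 0.59 between Cd74 and B2m, 0.75 between Cd74 and RT1-Da and 0.67 between B2m and RT1-Da. Of 3111 other genes with a mean count of 20 or more, ENSRNOG00000000569 was nearest to B2m, at 0.26, where the median distance was 1.05. Its level was 61.3 ± 35.7 (uninjured), 175 ± 42.4 (injured) and 177 ± 28 CPM (stimulated; SD, n = 4 each). ENSRNOG00000033611 was nearest to Cd74, at 0.39 against a median of 0.99, with 49.2 ± 25.6, 105 ± 15.0 and 92.3 ± 16.6 CPM in the same order. The tables used here pair neither identifier with a name.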

How the data were processed

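The deposited table holds raw counts, gene by library, for 12 CEL-Seq2 libraries (3′ tags with molecular identifiers). HISAT2 2.0.4, HTSeq 0.6.0 and the build Rnor_6.0 are listed in the submitters' processing notes without roles. The sources used here do not give the annotation, the strand setting or any collapsing of identifiers. Members and lists were chosen with earlier results of these data known.

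Groups came from the labels. R 4.3.3 with edgeR 4.0.16 was used: filterByExpr, TMM factors with library totals kept, and a robust quasi-likelihood fit of group over all 12 libraries, tested on simulated data. Benjamini-Hochberg adjustment ran over 5285 genes, with a threshold of 0.05. Tested genes held 92.6% to 93.9% of counts. Standard errors were taken as fold change over root F. All pairs of replicates differed by more than sampling noise (chi-square over its degrees of freedom 2.95 to 10.01). Members outside the filter were fitted without it (18333 genes). Its p-values are on another scale: B2m had 0.000406 there and 0.0126 with the filter (edgeR, injured cord). Log2 CPM used a prior count of 2, and the Cd74 to B2m ratio a pseudocount of 0.5 counts. limma 3.58.1, DESeq2 1.42.0, scipy 1.17.1 and matplotlib 3.10.9 were also used. The text names all 6 members, and the gene nearest to Cd74 and to B2m. Alternatives were other scalings, filters, tools and groups in the fit, a replicate block, a correction for identifier collisions and leaving out each library. The 67 genes of 11 further pathway and cell type lists could not be matched to identifiers and were not used.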

Additional observations from a re-analysis of the deposited data

Results flagged for a closer look

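In each group of 4 libraries, the gap between an extreme library and its nearest neighbour was set against the group's range, with Dixon's 95% critical value as the limit. Of 26 groups examined 2 exceeded it, where chance gives about 1.30. Psmb9 was counted in uninjured replicate 4 alone, from 1 count (gap 1.0 of the range), which any group with a single count would show. In stimulated cord Psmb9 was at 43.3 CPM in replicate 4 and at 10.6 to 14.4 CPM in the others (gap 0.885 of the range).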

How the results depend on the processing

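After injury edgeR called 2 members. It called 1 with a mean count of 20 or more and 1 with only the 2 groups compared, because RT1-Da was not tested under either. With stimulation against uninjured cord 3 were called, and 2 or 3 under all alternatives. Between stimulated and injured cord 0 were called under any. B2m, RT1-Da and Psmb9 kept direction and call against uninjured cord wherever they were tested.

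Leaving out 1 library in turn changed the sign of Cd74, B2m, RT1-Ba and Tap1 between stimulated and injured cord, where no member was called. RT1-Da and Psmb9 stayed negative, from -0.73 to -0.20 and from -0.85 to -0.00024 in log2 fold change. For the members that changed sign it ran from -0.056 to 0.38 for Cd74, from -0.20 to 0.088 for B2m, from -0.69 to 2.15 for RT1-Ba and from -0.20 to 1.22 for Tap1. The difference in log2 Cd74 to B2m ratio ran from -0.48 to 0.28 for stimulated minus uninjured and from -0.10 to 0.66 for stimulated minus injured. With 3 against 4 libraries that exact test cannot go below 0.0571. The cause was not tested.

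The labels do not say what a replicate number stands for. Deviations from group means correlated between -0.34 and 0.43 over the 12 pairs with the same number (median 0.196) and between -0.45 and 0.49 over the 36 other pairs (median -0.161). All 4 injured and stimulated pairs with the same number were above 0, from 0.066 to 0.291, but not all same-number pairs were, and libraries were not treated as paired. With the replicate number as a block, 2 members were called after injury, 3 with stimulation and 0 between the lesioned groups, as without it. RT1-Ba, fitted without a filter, then passed at edgeR adjusted p = 4.65e-06 and 1.18e-07 against uninjured cord.

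The highest count in each library lay between 4059 and 4094, just below the 4096 identifiers that 6 bases allow. B2m reached at most 1165 counts. Correcting counts for identifier collisions moved its log2 fold change to 1.46 after injury and 1.38 with stimulation. RT1-Ba, Psmb9 and Tap1 had too few counts to pass the filter.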
